A study of Mus musculus with 2 samples.

Results

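The constant genes of the antibody heavy and light chains, Ighm, Ighd, Igkc, Iglc1, Iglc2 and Iglc3, were followed in immune cells of the dorsal root ganglion (DRG). They are 6 of the 16819 gene symbols of a deposited single-cell matrix. They were chosen as a named set of genes and not by a cut on a measured value, but with earlier results of these data known. Their levels were read in B-lineage cells, taken as cells with at least 4 UMIs of Cd79a and Cd79b summed. A UMI (unique molecular identifier) counts a captured RNA molecule once. This gate kept 167 of 2668 cells (6.26%), and it uses none of the 6 genes. The same genes were then read in macrophages, neutrophils and T cells, where immunoglobulin RNA from other cells could be present as free RNA.

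CD45+ DAPI- cells, that is, live leukocytes, were sorted from pooled ganglia of the neck, chest and lower back of BALB/cAnNRj mice, genotype WT, that were naive, so there was no treated or mutant group. Each animal's cells carried a hashtag antibody, and 3 male and 3 female mice were run together in 1 lane of the 10x 3′ v3 assay, which reads the 3′ end of each transcript. The 2668 cells all carry a male hashtag, with 481, 772 and 1415 cells in mouse 1, mouse 2 and mouse 3, and the female mice come from a larger matrix of the same lane. Each hashtag was taken as 1 mouse, and the mouse is the replicate throughout. All mice share the lane, so errors between mice do not cover the spread between runs.

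An antibody is built from heavy chains and light chains, and each chain joins a variable region, assembled by DNA recombination, to a constant region. Ighm and Ighd encode the heavy chain constant regions of IgM and IgD and lie next to each other, so a naive B cell makes both from a single long transcript by alternative processing. Igkc encodes the kappa light chain constant region, and Iglc1, Iglc2 and Iglc3 encode lambda constant regions. A developing B cell first makes a heavy chain, which pairs with the surrogate light chain of Vpreb1 and Igll1, and then recombines kappa and, in fewer mouse cells, lambda. A mature B cell usually shows either kappa or lambda on its surface, which is called isotypic exclusion.

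In the GRCm38 assembly (mm10, GENCODE M21) Ighm lies on chromosome 12 at 113418558 to 113422730 and Ighd at 113406604 to 113416324, both on the minus strand. Igkc lies on chromosome 6 at 70726435 to 70726966 on the plus strand. The lambda genes lie on the minus strand of chromosome 16, with Iglc1 at 19061618 to 19062071, Iglc3 at 19065230 to 19065681 and Iglc2 at 19198396 to 19200351. The annotation is that of the reference strain, C57BL/6, and not of BALB/c.

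How well the lambda genes can be told apart depends on their sequence, so the last 90 coding bases of each light chain gene, stop codon included, are shown 5′ to 3′ as GENCODE M21 gives them. Capitals in Iglc3 and Iglc1 mark bases that differ from Iglc2, and Igkc is all in lower case because it was not aligned here.
Iglc2, chr16:19198536-19198625, minus strand: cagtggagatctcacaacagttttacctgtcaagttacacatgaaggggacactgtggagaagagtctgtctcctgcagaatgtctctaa
Iglc3, chr16:19065365-19065454, minus strand: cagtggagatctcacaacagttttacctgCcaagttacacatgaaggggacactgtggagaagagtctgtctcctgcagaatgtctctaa
Iglc1, chr16:19061752-19061841, minus strand: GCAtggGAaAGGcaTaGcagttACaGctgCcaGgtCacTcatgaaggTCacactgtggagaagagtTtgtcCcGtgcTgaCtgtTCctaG
Igkc, chr6:70726668-70726757, plus strand: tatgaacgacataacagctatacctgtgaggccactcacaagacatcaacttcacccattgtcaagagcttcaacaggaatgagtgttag

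Over these 90 bases Iglc3 differs from Iglc2 at 1 base and Iglc1 at 27. Across the whole coding part, Iglc2 and Iglc3 were 96.2% identical, whereas Iglc1 and Iglc2 were 73.7% identical. Over the full transcripts, the longest shared run was 79 bases for Iglc2 and Iglc3 and 19 for Iglc1 and Iglc2. Over the last 300 bases of the transcripts, identity was 92.5% and 62.7%, in the same order. Igkc was 55.4% to 57.0% identical to the lambda genes in the coding part, with shared runs of no more than 8 bases over the transcripts. Reads of Iglc2 and Iglc3 can thus be hard to assign, so the split between these genes is uncertain, whereas lambda against kappa and Iglc1 against the other two rest on many differing bases.

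Ighm itself ends in either of 2 ways, and the files count both under a single symbol. The final coding bases are shown with the 30 bases that the secreted and the membrane form share in lower case and the bases of each form alone in capitals.
Ighm secreted, chr12:113420867-113420958, minus strand: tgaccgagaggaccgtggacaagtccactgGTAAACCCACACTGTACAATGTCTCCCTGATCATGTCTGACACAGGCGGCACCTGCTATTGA
Ighm membrane, spliced, chr12:113418826-113420958, minus strand: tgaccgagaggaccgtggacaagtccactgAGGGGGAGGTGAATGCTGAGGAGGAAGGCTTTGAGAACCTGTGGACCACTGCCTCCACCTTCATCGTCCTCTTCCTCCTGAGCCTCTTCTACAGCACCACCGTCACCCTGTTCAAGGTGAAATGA
The secreted form adds 62 coding bases and the membrane form 125, and no value below separates them.

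The B-lineage cells numbered 45, 42 and 80 in mouse 1, 2 and 3, and their label was checked against genes outside the gate. Ebf1, a transcription factor that sets B cell identity, was detected in 97.6% of them, against 4.55% of macrophages and 1.27% of T cells. Vpreb3 was detected in 88.0% of the gated cells, Pax5 in 51.5% and Ms4a1 (CD20) in 46.7%, and each was in under 1% of macrophages and in 0 of 79 T cells. Of 10 listed B cell markers, 9 were in over 20% of gated cells. Bank1, among these 9, went the other way, in 32.3% of gated cells against 49.7% of macrophages. Blk was in 26.3% of gated cells and in 10.1% of T cells. Each listed marker but Bank1 was in a larger share of gated cells than of macrophages or T cells, and these markers bear out the label. Of the 167 cells, 134 fell in the cluster named for B cells, 28 in a cluster left without a name (number 7) whose leading genes were Sparc, Cd34 and cell cycle genes, and 5 in clusters of macrophages or neutrophils.

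Some RNA of other cells, and some cells of other clusters, came with the gate. The 10 macrophage markers summed to 4.87, 16.1 and 19.6 UMIs per gated cell in mouse 1, 2 and 3, and the 10 neutrophil markers to 6.44, 5.88 and 57.1. These means include 3 gated cells of a macrophage cluster, from mouse 2 and 3. They also include 1 gated cell from each of 2 neutrophil clusters, all in mouse 3. S100a9 was in 93.4% of gated cells and Apoe in 95.8%. The part of these RNAs in the values below was not tested. At the edge of the gate, the 19 cells with 3 Cd79 UMIs had 0 to 17 light chain UMIs (Igkc and the lambda genes summed), and the 2 cells with 4 had 0. Those 2 cells lay in the macrophage cluster. Scrublet, which looks for doublets (droplets with more than a single cell), marked 12 of the 2668 cells and 1 gated cell.

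Depth differed between the classes, which matters for every share of cells with a UMI. The median cell held 3431 UMIs in B-lineage cells (903 to 37058), 4577 in T cells, 6327.5 in neutrophils and 8442 in macrophages. For this reason some shares are also given after thinning each cell to 2000 UMIs, which leaves out 98 shallower cells. Intervals around shares and ratios are at 95% and cover counting error only, as do the limits given for counts of 0.

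Ighm was found in nearly all B-lineage cells. Its level was 22, 18.6 and 18.7 UMIs per cell in mouse 1, 2 and 3 (19.8 ± 1.92, SD, n = 3 mice), and the 3 mice lay close together. Single cells ranged from 0 to 84 UMIs with a median of 17, and 1 of 167 cells had none. As a share of all UMIs, Ighm made up 39.9 ± 5.55 per 10000 in B-lineage cells.

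Ighd RNA was much scarcer. It reached 0.956, 0.429 and 0.575 UMIs per cell in mouse 1, 2 and 3 (0.653 ± 0.272). At least 1 Ighd UMI was present in 37.8%, 16.7% and 26.3% of B-lineage cells, against 2.53% of T cells and 0.177% of neutrophils, which are deeper. The mice thus differed more in Ighd than in Ighm, with mouse 1 highest. For each Ighd UMI there were 30.6 Ighm UMIs over all B-lineage cells.

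Heavy chain calls used at least 3 UMIs of a gene in a cell. By this rule 145 of 167 cells (86.8%, interval 80.7% to 91.6%) had Ighm only, and 16 (9.58%, interval 5.58% to 15.1%) had Ighm and Ighd. The cells with both numbered 6, 3 and 7 in the 3 mice, or 9.74% ± 3.21 over mice. Ighd without Ighm was called in 1 cell, which held 2 Ighm UMIs, and 5 cells reached 3 UMIs of neither gene. A cell not called for a gene can thus still hold UMIs of it. Across the 167 cells, Ighd ran slightly against Ighm (Spearman rho -0.18) and with Igkc (rho 0.26), a description in sparse counts of cells that share a lane.

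Few UMIs came from the class-switched constant genes measured. Among the 273 B-lineage cells of all 6 mice, Ighg3 had 9 UMIs in 2 cells and Ighg2b 3 UMIs in 1 cell. Ighg1, Ighe and Igha were at 0 UMIs in these cells, which allows each a UMI in up to 1.10% of cells. A symbol for Ighg2a was not among the genes of the matrix, so it was not measured here. Jchain, the joining chain of secreted IgM and IgA, had 2 UMIs in 2 cells, neither of them of the B lineage. The fourth lambda constant gene, Iglc4, had 3 UMIs in 2 B-lineage cells.

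Igkc was the most abundant member. It gave 36.2, 33.4 and 33.2 UMIs per B-lineage cell in mouse 1, 2 and 3 (34.3 ± 1.72), which is a spread of the same order as that of Ighm. Single cells held 0 to 151 UMIs (median 23), and 148 of 167 cells (88.6%) had at least 1, against 3.80% of T cells and 3.19% of neutrophils.

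The lambda genes were lower on average but not rare. Iglc1 was at 5.98, 4.40 and 4.21 UMIs per cell (4.87 ± 0.968), with 0 UMIs in the median cell and 110 in the highest. Iglc2 was at 3.67, 3.62 and 3.91 (3.73 ± 0.157). Iglc3 was at 1.38, 1.26 and 2.85 (1.83 ± 0.885), so that mouse 3 stood above the others. Any UMI of Iglc1 was found in 42.5% of B-lineage cells, of Iglc2 in 49.7% and of Iglc3 in 54.5%, whereas in T cells Iglc1 was in 1.27% and the other two were at 0 of 79 cells, which allows up to 3.80%. Among all light chain UMIs of B-lineage cells, lambda made up 23.7% (interval 22.7% to 24.7%).

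**Figure D1:**
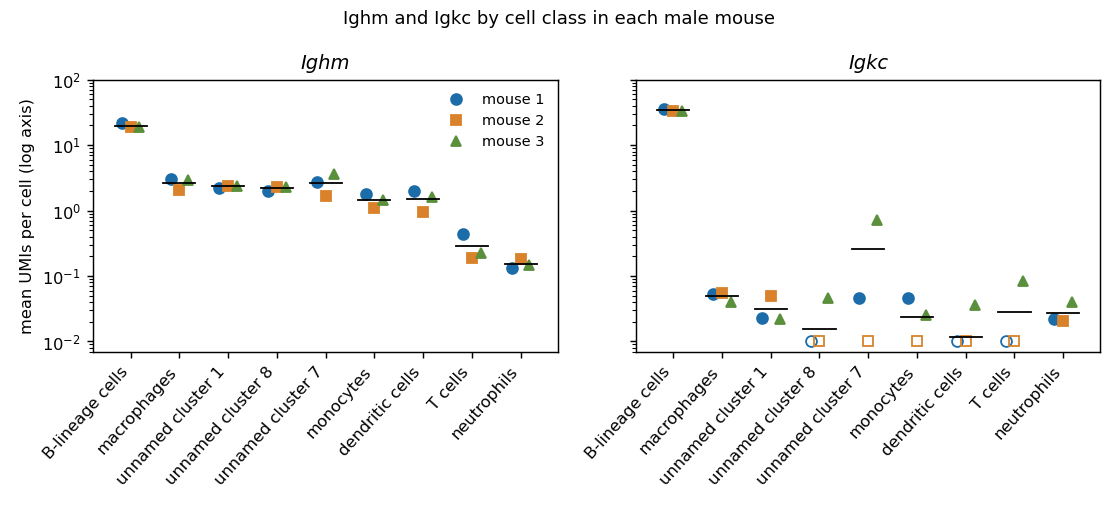
Mean UMIs per cell of Ighm (left) and Igkc (right) in each cell class (horizontal axis) and male mouse, on a log axis; each symbol is a mouse, black lines are the means of 3 mice, and open symbols at the bottom of the axis stand for 0. Both genes were highest in B-lineage cells, but Ighm stayed at 2.68 UMIs per macrophage whereas Igkc was at 0.0498.

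To ask how far single cells used a single light chain type, a cell with at least 10 light chain UMIs was called kappa or lambda when that type made up at least 90% of them, and otherwise both. Of 141 cells that could be called, 68 were kappa, 12 were lambda and 61 had both. By mouse, kappa cells numbered 23, 19 and 26, lambda cells 4, 2 and 6, and cells with both 16, 14 and 31. The share with both was 37.2%, 40.0% and 49.2% in mouse 1, 2 and 3 (42.1% ± 6.28, pooled 43.3%, interval 35.0% to 51.9%). The share of lambda cells was 9.30%, 5.71% and 9.52% (8.18% ± 2.14, pooled 8.51%, interval 4.48% to 14.4%), and that of kappa cells 49.7% ± 7.30.

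The calls depend on where the line is drawn, because lambda shares were spread out rather than falling at the ends. In 41 cells lambda made up under 1% of light chain UMIs and in 9 cells at least 95%. Between these, 13 cells lay at 2% to 5%, 10 at 5% to 10%, 20 at 10% to 20% and 31 at 20% to 50%. With the line at 80% of light chain UMIs, 26.3% of called cells had both, and at 95% it was 52.7% (means of 3 mice), and lambda cells went from 11.5% to 5.92%.

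**Figure D2:**
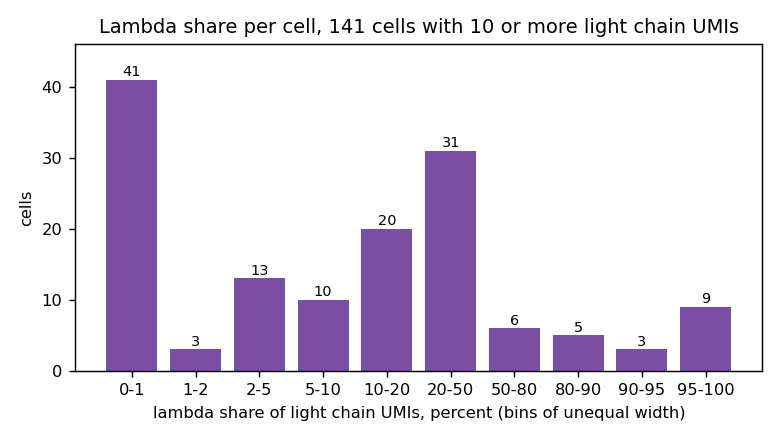
Number of B-lineage cells (vertical axis) by the percentage of their light chain UMIs that came from the lambda genes (horizontal axis, bins of unequal width), for the 141 cells with at least 10 light chain UMIs. The highest bar is the 41 cells under 1%, and 31 cells lie at 20% to 50%.

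Lambda cells held little kappa. Their Igkc ranged from 0 to 6 UMIs, and 8 of 12 had none, beside 10 to 112 lambda UMIs (median 45). In kappa cells Igkc was at 10 to 132 UMIs (median 32) and lambda at 0 to 11, with 39 of 68 cells at 0. The cells with both had 3 to 151 Igkc UMIs (median 41) and 2 to 61 lambda UMIs (median 13). Their Igkc was at 42.1 ± 7.67 UMIs per cell over mice, against 42.7 ± 2.64 in kappa cells. The kappa mean pools unlike parts. Median Igkc was 19 UMIs in the 39 kappa cells without lambda and 63 in the 29 with lambda, and the median of 41 in cells with both lay between these. The similar means thus do not show that lambda was added to an unchanged Igkc level. The lambda level of cells with both, 16.2 ± 2.49 UMIs per cell, was between that of lambda cells (58.0 ± 17.6) and kappa cells (1.40 ± 0.334). These levels follow in part from the rule that made the calls and are a description.

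Depth and free RNA were set beside the cells with both. Their median depth was 3217 UMIs, against 3958 in kappa cells and 2282.5 in lambda cells. The kappa cells held 39 without lambda at a median of 7482 UMIs and 29 with lambda at 3373. Of the 61 cells with both, 0 were marked by Scrublet. Outside the B lineage, lambda UMIs ran at 0.0111 per macrophage, 0.00709 per neutrophil and 0.0127 per T cell. Thinned to 2000 UMIs, 102 cells could be called and the share with both was 51.2% ± 9.66, against 42.1% ± 6.28 at full depth. At full depth 141 cells could be called, so these shares cover different sets of cells and do not show how depth changes the call of a given cell. Doublets of cells from the same mouse carry a single hashtag, and the part of doublets, depth and free RNA in the share was not tested.

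**Figure D3:**
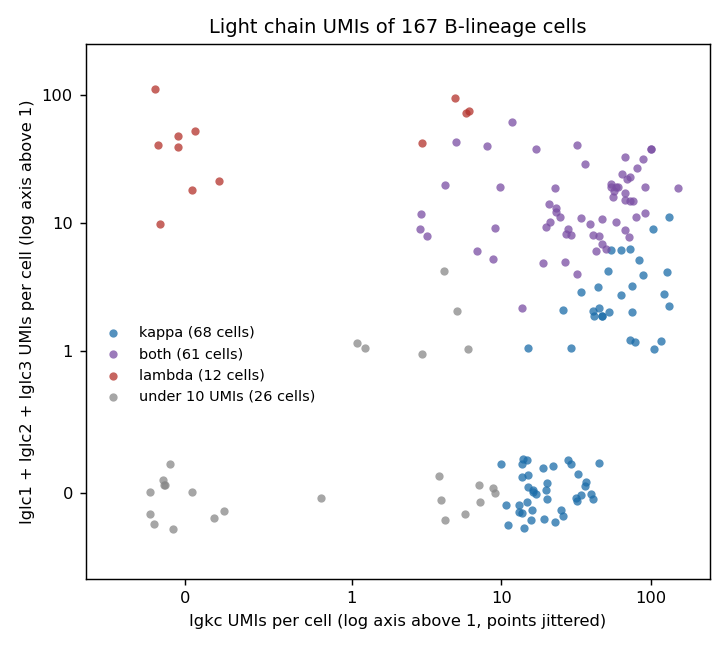
Lambda UMIs (Iglc1, Iglc2 and Iglc3 summed, vertical axis) against Igkc UMIs (horizontal axis) in each of 167 B-lineage cells, both on log axes above 1 and jittered, coloured by light chain call. The 12 lambda cells lie at 0 to 6 Igkc UMIs, the 68 kappa cells at 10 to 132 and the 61 cells with both at 3 to 151.

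The lambda genes themselves were used differently by the calls. In lambda cells Iglc1 gave 80.8% of lambda UMIs, and it was the highest of the 3 genes in 8 of 12 cells. In cells with both, Iglc2 gave 50.3%, Iglc1 26.3% and Iglc3 23.4%. Among the 59 of these cells with at least 5 lambda UMIs, Iglc2 was highest in 40, Iglc1 in 12 and Iglc3 in 7, and 41 cells held all 3 genes. Reads that cannot tell Iglc2 from Iglc3 could move UMIs between these genes, whereas Iglc1 differs from Iglc2 at 27 of the 90 bases shown above. No test was made across the calls, since cells of a mouse are not replicates.

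**Figure D4:**
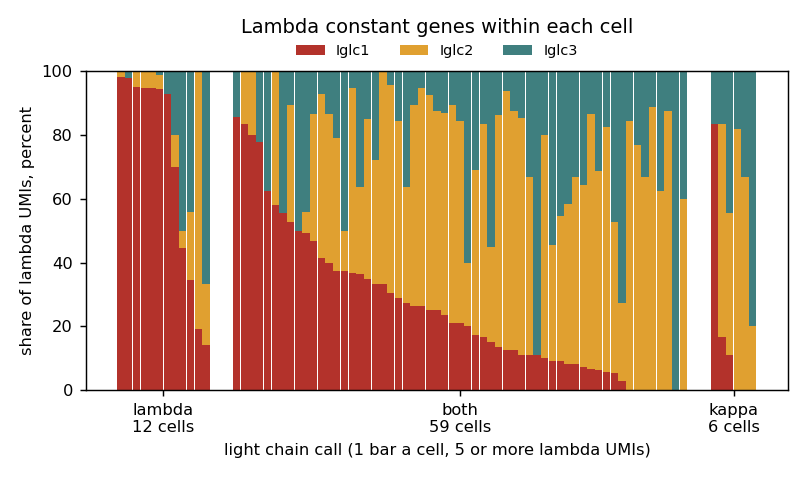
Share of a cell's lambda UMIs (vertical axis, percent) that came from Iglc1, Iglc2 and Iglc3, for B-lineage cells with at least 5 lambda UMIs. Each stacked bar is a cell, and bars are grouped by light chain call (12 lambda cells, 59 cells with both, 6 kappa cells). Iglc1 was the highest gene in 8 of 12 lambda cells and in 12 of 59 cells with both.

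The calls also went with Ms4a1 and with cell cycle genes. Ms4a1, the CD20 gene that rises late in B cell development, had a UMI in 48 of 61 cells with both (78.7%) and in 7 of 12 lambda cells. Kappa cells fell into parts: a UMI of Ms4a1 was found in 21 of 29 with at least 1 lambda UMI and in 1 of 39 with none. The cycling genes (10 listed, among them Mki67 and Top2a) ran at 109 ± 10.2 UMIs per 10000 in kappa cells without lambda, against 4.56 ± 1.60 in kappa cells with lambda and 5.71 ± 1.51 in cells with both. Of the 39 kappa cells without lambda, 18 lay in the cluster named for B cells. The rest lay in the unnamed cluster whose leading genes included cell cycle genes. All 29 kappa cells with lambda, 61 cells with both and 12 lambda cells lay in the cluster named for B cells. The difference in cycling genes is thus also a difference between clusters, and it was not tested within a cluster. Kappa cells without lambda were deeper (median 7482 UMIs against 3373) and had less Igkc (median 19 UMIs against 63). This split was made after the values were seen and carries no test in the male mice.

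Divided by Ms4a1 alone, lambda UMIs were present in 95.5%, 100% and 100% of Ms4a1+ cells (22, 20 and 36 cells in mouse 1, 2 and 3), against 39.1%, 36.4% and 31.8% of cells with no Ms4a1 UMI (23, 22 and 44 cells). The share with both light chains was 63.6%, 50% and 68.6% against 9.52%, 26.7% and 25%. Igkc followed, at 53.0 ± 4.82 UMIs per cell against 17.8 ± 6.61, whereas Ighm per cell was at 17.8 ± 2.07 against 21.7 ± 5.71. The cells with no Ms4a1 UMI were deeper (pooled median 3947 UMIs against 3248.5). Per 10000 UMIs, Ighm was higher in Ms4a1+ cells, at 43.5, 55.5 and 55.5 against 35.4, 39.7 and 27.6 in mouse 1, 2 and 3. The order of Ighm thus depended on the unit.

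The female mice were not used here in choosing this split, and there it could be tested. The share with both light chains was 70.0%, 78.6% and 73.7% in Ms4a1+ cells (21, 15 and 21 cells) and 18.8%, 12.5% and 45.5% in the other B-lineage cells (19, 12 and 18 cells). A lambda UMI was present in 94.6% ± 4.89 against 47.3% ± 2.78 of cells, and Igkc was at 39.0 ± 1.54 against 17.6 ± 3.35 UMIs per cell. Each of these, and the summed lambda level (17.2 ± 3.62 against 4.28 ± 2.82 UMIs per cell), was higher in Ms4a1+ cells in 3 of 3 mice without overlap. An exact 2-sided permutation test that did not pair the parts of a mouse gave p = 0.1 for each. This is the smallest p that 3 against 3 allows (adjusted p = 0.125 over 5 measures), so none could pass 0.05. Ighm was at 17.1 ± 2.08 against 17.0 ± 2.99 UMIs per cell (exact permutation p = 0.9).

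At the early end, 28 cells (9, 4 and 15 in mouse 1, 2 and 3) had at least 2 UMIs over Vpreb1, Igll1, Dntt, Rag1 and Rag2, the genes of the surrogate light chain and of V(D)J recombination. Ighm was at 28.3, 24.1 and 16.8 UMIs per 10000 in these cells, against 44.6, 49.6 and 47.3 in the other B-lineage cells. Per cell it was not lower in every mouse, at 34.4, 13.75 and 17.8 UMIs against 18.9, 19.2 and 18.9. Igkc was at 17.6, 11.4 and 7.16 per 10000 against 94.4, 93.8 and 97.6, so the difference was wider for the light chain than for the heavy chain in each mouse. Lambda was at or near 0, with a pooled Iglc1 level of 0.103 per 10000 against 14.1. Since 2 of the mice had under 10 such cells, these are values without a test, and the precursor cells were the deeper ones (median 8372.5 UMIs against 3310).

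The 26 cells with under 10 light chain UMIs overlapped with them. Of these 26, 14 were among the 28 precursor-gated cells, 11 had no light chain UMI and 22 had at least 3 Ighm UMIs. Their low light chain count is how they were chosen, and 3 Ighm UMIs is close to the mean macrophage (2.68). The gated cells that lay in clusters of macrophages or neutrophils were all among the 11. In the other direction, 13 of the 28 precursor-gated cells were called kappa, 1 had both and 0 were lambda, which allows a share of up to 10.7%.

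B-lineage cells were then compared with T cells, macrophages and neutrophils over sums of raw UMIs per mouse and class, in CPM (UMIs put on the same total in every sum) and with edgeR's quasi-likelihood test. All 6 members passed the filter on low counts and were called higher in B-lineage cells in each of the 3 comparisons. Of all genes tested against T cells, 31.6% were called, 14.6% as higher in B-lineage cells and 17% as lower. Against macrophages 58.2% were called (27.2% higher, 31% lower) and against neutrophils 65.5% (32.9% higher, 32.6% lower). Ighd and the light chain genes passed the filter through the B-lineage sums, so that their call says little beyond the values that follow. These comparisons share the B-lineage sums. The fit rescales the totals of the sums by TMM factors, which the CPM given here do not use. Fold changes and called directions can thus differ from the ratio of the CPM.

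Ighm had UMIs in every class compared. It was at 3780, 4617 and 3569 CPM in B-lineage cells of mouse 1, 2 and 3, at 343, 283 and 291 CPM in macrophages, at 113, 39.5 and 42.3 in T cells and at 14.9, 27.6 and 17.1 in neutrophils. The groups did not overlap. The log2 fold change on totals rescaled with TMM factors (edgeR, Benjamini-Hochberg adjusted p) was 3.20 ± 0.17 (SE) against macrophages (adjusted p = 1.13e-09), 5.82 ± 0.27 against T cells (adjusted p = 5.85e-09) and 6.51 ± 0.26 against neutrophils (adjusted p = 4.97e-12).

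Igkc was at 6227, 8267 and 6327 CPM in B-lineage cells and at 5.995, 7.68 and 3.99 in macrophages, a pooled ratio of 1232 (interval 900.2 to 1735, counting error only). In neutrophils it was at 2.48, 3.06 and 4.55 CPM (pooled ratio 1752, interval 1108 to 2959). In T cells it came to 3 UMIs in all, which makes a ratio of 828 in B-lineage cells (interval 283 to 4018).

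For the lambda genes, the other classes held so few UMIs that only the pooled ratio of CPM is given. Iglc1 was 1671 times higher than in macrophages (interval 650 to 6148, 791 against 4 UMIs), and Iglc3 725 times (interval 280 to 2674, 343 against 4 UMIs). Iglc2 had 630 UMIs in B-lineage cells and 1 in macrophages (ratio 5323, interval 952 to 210593). In T cells Iglc2 and Iglc3 were at 0, so that they were at least 91.8-fold and at least 49.97-fold higher in B-lineage cells, with 3 counts over the T cells as the floor.

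Ighd was at 164, 106 and 110 CPM in B-lineage cells and at 4.80, 5.97 and 2.74 in macrophages (pooled ratio 31.2, interval 20.5 to 48.8, 107 against 29 UMIs). T cells held 2 Ighd UMIs (ratio 23.4, interval 6.32 to 196) and neutrophils 1 (ratio 593, interval 104 to 23657).

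Other genes of the B cell receptor pathway, from lists made with earlier results of these data known, differed from the light chain genes in that many are shared with myeloid cells. Ighm was found in myeloid cells too, as given below. Listed genes at or near 0 in the class compared passed the filter through the B-lineage sums. Their calls, and the counts and medians that hold them, say little beyond the levels. Of the receptor and coreceptor genes, 4 of 6 tested were higher than in T cells and 0 lower (median log2 fold change 3.97, all genes 0.04). Against macrophages 3 were higher and 3 lower. Cd79a, which with Cd79b carries the receptor's signal, was at 2483 CPM against 1.73 in macrophages (log2 fold change 10.49), but it was used for the gate. Cd81, a tetraspanin, was lower in B-lineage cells at 272 CPM against 984 (log2 fold change -2.33, edgeR adjusted p = 8.65e-08).

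Among the signalling genes downstream of the receptor, 7 of 8 tested were higher than in T cells (median log2 fold change 3.96), and 8 of 12 were higher and 0 lower than in macrophages (median 0.72, all genes -0.01). Blnk, the adaptor that links SYK to phospholipase C, was at 429 CPM in B-lineage cells, 3.13 in T cells and 117 in macrophages. The kinase gene Blk was at 86.9 CPM against 0.166 in macrophages. Against neutrophils 4 of 12 were called higher and 3 lower. These calls follow the rescaled totals of the fit and not the CPM. Lyn, called lower (log2 fold change -0.85), was at 297 CPM in B-lineage cells against 228 in neutrophils. Plcg2, also called lower (-0.87), was at 45.3 CPM against 34.0.

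B cell transcription factor genes were higher than in T cells in 10 of 10 (median log2 fold change 4.38), than in macrophages in 7 of 10 with 1 lower (median 3.82) and than in neutrophils in 10 of 10 (median 7.31). Pax5 was at 195, 195 and 193 CPM in B-lineage cells of the 3 mice and at 0.142 CPM on average in macrophages. Pou2af1, a coactivator of octamer-binding factors at immunoglobulin promoters, was at 278 CPM against 0.0831. In T cells and in neutrophils, Pax5, Spib and Pou2af1 were at 0 CPM in every mouse, so their calls there followed from the filter.

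The stages were represented on both sides. Of the precursor genes, 9 of 10 tested were higher than in macrophages and 1 lower (median log2 fold change 7.91), with Vpreb3 at 2249 CPM, Vpreb1 at 288 and Igll1 at 265 in B-lineage cells. Among mature B cell genes 7 of 9 were higher and 2 lower (median 4.70), with Ms4a1 at 559 CPM against 0. Vpreb1, Vpreb3, Igll1 and Ms4a1, at 0 to 0.676 CPM in macrophages, also passed the filter through the B-lineage sums. Of the plasma cell genes 4 of 8 could be tested: Mzb1 (715 CPM against 0.593) and Irf4 (110 against 5.48) were higher and Xbp1 (84.9 against 133) and Prdm1 (0 against 65.3) lower than in macrophages. Prdm1, which encodes the factor that drives plasma cells, was thus at 0 in B-lineage cells.

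Outside the B lineage, the members did not behave alike. Of 7739 Ighm UMIs in the 2668 cells, 57.7% lay in cells outside the gate, against 37.4% of 171 Ighd UMIs, 2.59% of 5838 Igkc UMIs, 1.37% of 802 Iglc1 UMIs and 1.72% of 641 Iglc2 UMIs. For Iglc3 it was 11.8% of 389 UMIs, and 38 of these 46 outside UMIs sat in 8 cells of the cluster without a name that also held 28 gated cells. The same cluster held 49 of the 151 outside Igkc UMIs, with up to 14 in a cell, and 48 of them in mouse 3.

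Cells of the clusters named as macrophages held 2117 of the 4469 Ighm UMIs outside the gate. The unnamed clusters 1 and 8 held a further 1588. Their summed C1q genes, at 139 and 169 UMIs per cell, were not below those of macrophage cluster 0 (139). The Ighm level was 3.04, 2.05 and 2.95 UMIs per macrophage in mouse 1, 2 and 3 (2.68 ± 0.547), and 80.3% of 813 macrophages had at least 1 UMI. The class pools clusters of unlike level. Ighm was at 2.34 UMIs per cell in cluster 0 (723 cells) and at 4.64 in cluster 12 (11 cells). It was at 4.70 in cluster 9 (79 cells, 65 of them of mouse 3), which was deep, with a median of 15868 UMIs, and led by DNA replication genes. The median macrophage held 2 UMIs and the highest 13, and 105 of 813 had at least 6, whereas 149 of 167 B-lineage cells did. In 2 other clusters with C1q genes that were left without a name (numbered 1 and 8), Ighm was at 2.34 ± 0.0783 and 2.19 ± 0.165 UMIs per cell, which does not differ from macrophages beyond the spread over mice. The third unnamed cluster (numbered 7) was at 2.67 ± 0.955 outside the gate. Dendritic cells were at 1.53 ± 0.539 and monocytes at 1.45 ± 0.364, and these neighbours in the order do not differ beyond their spread either.

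T cells and neutrophils were lower. T cells held 0.444, 0.188 and 0.222 Ighm UMIs per cell (0.285 ± 0.139) and neutrophils 0.130, 0.184 and 0.149 (0.154 ± 0.0270). No cell of either class reached 6 UMIs, and the highest held 4. The differences from macrophages were -2.40 and -2.53 UMIs per cell, with macrophages higher in 3 of 3 mice and no overlap. Each gave p = 0.1 in an exact 2-sided permutation test that did not pair the classes of a mouse. This is the smallest p possible with 3 against 3 (adjusted p = 0.133 over 4 comparisons).

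In edgeR, which divides by depth rescaled with TMM factors, Ighm was also lower in T cells than in macrophages (log2 fold change -2.63 ± 0.29, edgeR adjusted p = 6.55e-08, 3.42e-22 to 8.11e-05 over its alternatives) and in neutrophils (-3.29 ± 0.19, edgeR adjusted p = 3.24e-13, 3.49e-61 to 8.7e-09 over its alternatives). This fit was added after the data had been seen. In it 45.4% of all genes tested were called between T cells and macrophages (19.9% higher, 25.5% lower in T cells) and 68.9% between neutrophils and macrophages (31.3% higher, 37.6% lower in neutrophils). After thinning to 2000 UMIs, an Ighm UMI was left in 43.9% ± 6.95 of macrophages, 11.01% ± 11.4 of T cells and 6.07% ± 1.83 of neutrophils. Without cells that held any Cd79a or Cd79b UMI, the difference in UMIs stayed of this size, at -2.28 UMIs per cell for T cells and -2.37 for neutrophils.

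Igkc was low in all 3 classes. Macrophages held 0.0532, 0.0557 and 0.0404 Igkc UMIs per cell (0.0498 ± 0.00821), neutrophils 0.0217, 0.0204 and 0.0396 (0.0273 ± 0.0107) and T cells 0, 0 and 0.0833 (0.0278 ± 0.0481). Macrophages were higher than neutrophils in 3 of 3 mice without overlap (exact 2-sided permutation p = 0.1, the smallest possible, adjusted p = 0.133) and higher than T cells in 2 of 3 mice (exact permutation p = 0.4, adjusted p = 0.4). When macrophages and neutrophils were taken by gates on C1q and S100a8 and S100a9 instead of by clusters, the difference in Igkc for neutrophils was 9.23e-06 UMIs per cell, so the order there rests on how the classes were drawn.

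The proportion of Ighm to Igkc UMIs was also taken in each class. In B-lineage cells Ighm made up 37.8%, 35.8% and 36.1% of the Ighm and Igkc UMIs of mouse 1, 2 and 3. In macrophages it made up 98.3%, 97.4% and 98.6% (pooled 98.2%, interval 97.5% to 98.7%), in neutrophils 82.5% (interval 73.8% to 89.3%) and in T cells 88.5% (interval 69.8% to 97.6%). Which RNA gives these Ighm counts was not tested, and the 3′ counts do not show whether a V region is attached.

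B cell genes other than Ighm were mostly near 0 in macrophages. Cd79a was at 0.00984 UMIs per macrophage (12.2 in B-lineage cells), Vpreb3 at 0.00738 (11.2) and Ebf1 at 0.0554 (12.1), and Ms4a1 had no UMI. Ighd was at 0.0357 against 0.641, and Cd79b at 0.315 against 7.13, with a Cd79b UMI in 24.8% of macrophages but in 5.06% of T cells and 2.30% of neutrophils. Cd79a and Cd79b made the B-lineage gate, and cells that passed it were not counted as macrophages. The levels of Cd79a and Cd79b in both classes thus follow in part from the gate, whereas Vpreb3, Ebf1, Ms4a1 and Ighd were not used for it. Bank1, a B cell adaptor, was in 49.7% of macrophages and 32.3% of B-lineage cells. Ighm went with depth among macrophages, with a Spearman rho of 0.53 over 813 cells of 1 lane.

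With classes taken by gates in all 6 mice of the larger matrix, Ighm was at 1.80 to 2.79 UMIs per macrophage, at 0.176 to 0.889 per T cell and at 0 to 0.275 per neutrophil. Macrophages were higher in 6 of 6 mice in both comparisons, without overlap between the groups (exact 2-sided permutation p = 0.00216 for each). This test took the classes as independent and did not pair those of the same mouse, so its p is not that of a paired design. The male mice among the 6 are those already compared above. For Igkc the means were 0.0367 UMIs per macrophage, 0.0201 per T cell (exact permutation p = 0.279) and 0.0369 per neutrophil (exact permutation p = 0.989). The Ighm order was thus found in the female mice too, and the Igkc levels could not be told apart at this depth.

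**Figure D5:**
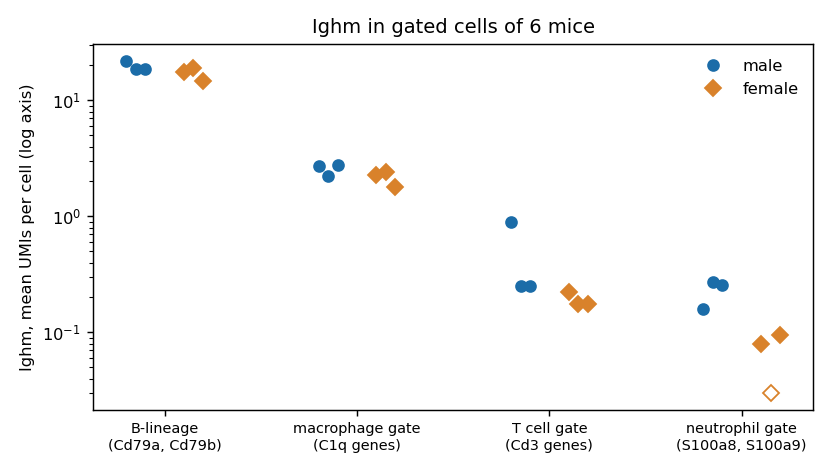
Mean Ighm UMIs per cell (vertical axis, log) in macrophages, T cells and neutrophils taken by marker gates, and in B-lineage cells, for 3 male and 3 female mice; each symbol is a mouse and an open symbol stands for 0. Macrophages lie at 1.80 to 2.79 in all 6 mice, above every T cell and neutrophil value.

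Genes with a pattern like that of the members were sought over 27 sums (9 classes in 3 mice) by Pearson's r of log2(CPM + 1) among 2899 genes. These genes had passed the filter in the comparison of B-lineage with T cells, so genes low in both classes could not appear. The sums share a lane and the classes differ in depth, so r is a description. For Ighm the nearest were Camk2d (r 0.892), Pkig (0.883), Tnfrsf13b (0.871), Swap70 (0.862) and Herpud1 (0.856). For Igkc they were Gm30211 (0.949), Pax5 (0.945), 4930597A21Rik (0.943), Pou2af1 (0.935) and Myl4 (0.935). For Ighd they were Dmxl1 (0.858), Slamf6 (0.834), Ighm (0.830), Camk2d (0.816) and Plekha2 (0.815). Ighm was closer to Igkc (0.752) and Cd79a (0.757) than to C1qa (0.375). Cd79a was used for the B-lineage gate and C1qa was among the markers that named macrophage clusters. Their r thus follows in part from how the classes were drawn.

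Male and female B-lineage cells were compared in the larger matrix, with 40, 27 and 39 cells in the 3 female mice. Ighm was at 17.4, 19.1 and 14.6 UMIs per cell in female mice, against 22, 18.6 and 18.7 in male mice, so the groups overlapped. In edgeR the log2 fold change (male over female) was 0.01 ± 0.12 for Ighm and 0.03 ± 0.12 for Igkc, and -0.68 ± 0.27 for Ighd, -0.62 ± 0.22 for Iglc2, -0.72 ± 0.38 for Iglc3 and 0.20 ± 0.17 for Iglc1. Of the 6 members 0 were called by edgeR (adjusted p = 0.946 to 0.999), and Ighd (unadjusted p = 0.0259) and Iglc2 (unadjusted p = 0.0148) were under 0.05 before adjustment. Over all 2768 genes 0.0723% were called (0.0361% higher and 0.0361% lower in male mice), which is 2 genes, Xist (log2 fold change -9.04, edgeR adjusted p = 2.1e-08) and Eif2s3y (4.45, edgeR adjusted p = 0.00616), named after their values were seen. DESeq2 also called 2, and 130 genes were under an unadjusted p of 0.05. Hashtags and sex thus went together as labelled.

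Per cell, Igkc was at 34.3 ± 1.72 UMIs in male and 29.2 ± 2.46 in female mice and Iglc2 at 3.73 ± 0.157 and 4.87 ± 1.15, without overlap in either. Each had an exact 2-sided permutation p of 0.1, the smallest possible (adjusted p = 0.514 over 12 measures). The share with both light chains was 42.1% ± 6.28 in male and 55.0% ± 8.07 in female mice (exact permutation p = 0.2), and the share of lambda cells 8.18% ± 2.14 and 6.18% ± 3.18 (exact permutation p = 0.5). With 3 mice a sex, a difference in these shares could not have passed 0.05.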

How the data were processed

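The authors deposited raw UMI counts, not normalized, from Cell Ranger 3.1.0 (mm10) for 4395 barcodes, 31053 genes and 6 hashtags, and for the 2668 cells and 16819 symbols they kept in Seurat, all of which are among the 4395 barcodes with 0 differing counts. The 2668 cells hold 23403638 UMIs (4239463, 5656097 and 13508078 in male mouse 1, 2 and 3). HTODemux (positive quantile 0.99) on all barcodes, followed by the study's filters (over 200 and under 5000 genes, under 5% mitochondrial), left 3741 singlets, of which 2668 male ones were the deposited cells. Cells were clustered in Seurat 5.3.0 (R 4.3.3; 2000 variable features without immunoglobulin genes, 15 principal components, resolution 0.5). A cluster took a cell type name from at least 3 raised markers, 2 clusters with fewer stayed unnamed, and 1 more was left unnamed because its leading genes went against its markers. T cells were cells of the T and NK cluster with a Cd3 UMI. Sums per mouse and class (75964 to 4011796 UMIs) were tested with edgeR 4.0.16 (TMM, filterByExpr, quasi-likelihood, Benjamini-Hochberg at 0.05), with DESeq2 1.42.0 as an alternative. Levels per cell used exact 2-sided permutation tests and shares exact Clopper-Pearson intervals (SciPy 1.17.1, Python 3.11.15), and doublets were marked with Scrublet in scanpy 1.11.5. The permutation tests took all values as independent, also where the classes or parts compared come from the same mice. Tested on data simulated for the comparison with T cells (2668 of 2900 genes tested), edgeR called 41.9% of the genes given a log2 change of 1, 99% of the genes given a change of 2 and 5 others.

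Sums with the same number come from the same mouse, and the deviations of paired sums correlated at 0.00228 to 0.138 in the 3 comparisons of B-lineage cells. With the mouse as replicate block 940, 3587 and 3471 genes were called against T cells, macrophages and neutrophils (916, 3693 and 3489 without). The 6 genes, the lists and the named genes (all members, up to 4 examples per list in list order, the 5 most alike genes) were chosen with earlier results of these data known. The sex behind each hashtag is that of the deposited description.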

Additional observations from a re-analysis of the deposited data

Results flagged for a closer look

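Barcodes with 2 hashtags are outside the comparisons above. Among 29 such barcodes with at least 4 Cd79 UMIs, 25 could be called for light chain, and 13 of them (52%, exact interval 31.3% to 72.2%) had both kappa and lambda. Among single-hashtag B-lineage cells of all 6 mice it was 109 of 229 (47.6%, interval 41.0% to 54.3%), and the intervals overlap. The median depth was 6929 UMIs in the barcodes with 2 hashtags and 3361 in the others. The result stands here because it is a signal in barcodes that no comparison used, without a control sample.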

How the results depend on the processing

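Ighm kept its direction and its call against T cells, macrophages and neutrophils under every alternative run. These were DESeq2, its size factors, no filter on low counts, gates of 2 and 8 UMIs, removal of Scrublet cells, classes from gates, each mouse left out, the replicate block and, added later, the unnamed clusters 1 and 8 counted as macrophages. Ighd and the light chain genes passed the filter through the B-lineage sums, so their calls under these settings say nothing about stability. The mouse as replicate block changed no call of a member and moved no count by over 1.5 times (940 genes against T cells). Without a filter on low counts, 1528 of 12961 genes were called against T cells (833 higher, 695 lower) and 30 of 13061 between male and female mice (24 higher, 6 lower). Leaving out a mouse, 1 to 3 genes were called between the sexes, with 1 without female replicate 1 or 3. With a mouse left out, the log2 fold change between the sexes ran from -0.10 (without male replicate 2) to 0.091 (without male replicate 3) for Ighm, with -0.01 without female replicate 3, and from -0.11 (without male replicate 2) to 0.10 for Igkc, and the cause was not tested. For Iglc3 (-0.72 with all mice) it was -0.088 without female replicate 2 and -1.16 without male replicate 3. Ighd (-0.68) ran from -0.91 (without male replicate 1) to -0.38 (without female replicate 1), and Iglc2 (-0.62) from -0.81 (without female replicate 2) to -0.31 (without female replicate 3). Iglc1 (0.20) ran from 0.12 (without male replicate 2) to 0.33 (without male replicate 3). Classes from gates turned the difference in Igkc between neutrophils and macrophages to 9.23e-06 UMIs per cell. For Ighm, edgeR across all genes, added later, brought the differences past the threshold (-2.63 in T cells, -3.29 in neutrophils), since the permutation test of 3 against 3 cannot reach it. Shares moved with the rule for a call. Lambda cells were 11.5% at 80% and 5.92% at 95% of light chain UMIs, and cells with both 26.3% and 52.7%. Thinned to 2000 UMIs, where only 102 cells could be called, cells with both were 51.2%. Cells with Ighm and Ighd were 26.9% at 1 UMI of each gene, 0% at 10 UMIs and 5.74% when thinned. The comparison of precursor-gated with other B-lineage cells was not run as a test, since only mouse 3 had at least 10 such cells, so that none of its alternatives has a value. Depth limits Ighd, at under 1 UMI per B-lineage cell, and light chain genes in macrophages, neutrophils and T cells, at under 0.1.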
